A study of Homo sapiens with 24 samples.

Results

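Control cells were R-2A human induced pluripotent stem cells (hiPSCs) that carried a control shRNA, and their first week of neural induction was described by setting the 3 arrays of day 7 against the 3 arrays of day 0. The comparison covered every transcript cluster with a gene symbol, 37295 of the 135750 clusters tested, which gave 33616 genes after 1 cluster was kept for each symbol. These 6 arrays belong to a series of 24 Clariom D arrays of control cells and *ROR2* KD cells on days 0, 7, 14 and 21, 3 biological replicates of each line at each time. R-2A is the line HiPS-RIKEN-2A. Control cells had been infected with lentiviral particles whose shRNA has no target in mammals, *ROR2* KD cells with an shRNA against *ROR2*, which encodes a WNT receptor, and both were selected with puromycin. The labels give the day 0 samples as undifferentiated and the culture of undifferentiated cells as StemFit AK02 medium on iMatrix-511. From then on they were kept in a neural induction medium with SMADi, a supplement that inhibits SMAD signalling, on Matrigel, with a ROCK inhibitor at seeding, and were passaged every 7 days. Day, medium, coating and passage changed together, so they cannot be told apart. The labels do not say that the replicates came from separately transduced cultures, so the p-values measure only the spread between these samples.

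Pluripotent stem cells are held in their state by a circuit of transcription factors around OCT4, NANOG and SOX2, supplied by FGF and by Activin or Nodal signals that act through SMAD proteins. Blocking SMAD signalling turns them into neuroectoderm, an epithelium that gives rise to the brain and that takes on forebrain character unless WNT, FGF or retinoic acid signals make it more posterior. During this step cells lose E-cadherin and gain N-cadherin, and genes such as *PAX6* and *LHX2* come on before neurons appear.

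A gene was called where its adjusted p was under 0.05 (limma, Benjamini-Hochberg over all clusters) and its fold change above 2, that is, a change of more than 1 on the log2 scale. By this rule 3427 genes rose (10.2% of 33616) and 5838 fell (17.4%). These shares are the background for the counts below. For protein-coding genes, which make up most of the lists, they were 10.9% and 26.8%. Levels are log2 RMA signals, and a level of one gene was never set against that of another. The background level of an array, taken over its 23 probe sets for background at their 95th percentile, was 9.41 to 9.97 on the day 0 arrays and 8.42 to 8.63 on the day 7 arrays, while the array medians were 4.31 to 4.36 and 4.29 to 4.31. The medians of these background probe sets were far lower, 3.41 to 3.44 on day 0 and 3.06 to 3.09 on day 7. Of the clusters with a symbol, 20.1 to 22.1% exceeded the level on the day 0 arrays and 24.8 to 25.7% on the day 7 arrays. The level is thus a strict one, and a gene under it need not be absent. Where a gene lay under this level on all arrays of a day, only a bound on its fold is given, measured from that level. It is printed as "at least" where the levels of each array are given, unless it is under 1, and log2 changes of such genes are differences of the measured signals, whose order among themselves has no meaning. Both days of 4132 called genes lay under it, 1361 that rose and 2771 that fell. The direction of small changes depended on the scaling. The median level of the 5273 protein-coding genes above background on all 6 arrays changed by -0.49 from day 0 to day 7, and the mean level of 11 reference genes, picked as genes that most cells use, by -1.09. With each array centred on the bright protein-coding genes, 5831 genes rose and 3524 fell. Centred on the reference genes, 13954 rose and 1946 fell, so that under both the split turned from more falls to more rises. Lists whose balance of rises and falls turned with either scaling are named as such below. In bulk RNA, fewer cells of a type and less RNA per cell cannot be told apart.

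By the measured signals, the 20 largest falls included many genes of pluripotent cells and the 20 largest rises many genes of the early neural plate. All of them lay under the background level on every array of 1 of the days, so they are given in no order. 49 genes rose and 101 fell by more than 64-fold in measured signal. *DLK1*, an imprinted gene that encodes a membrane protein related to Notch ligands, had levels of 5.11, 5.41 and 5.01 on day 0 and 18.22, 18.41 and 18.30 on day 7. All 3 day 0 arrays were under the background level and all 3 day 7 arrays were near the top of the scale, and the rise was 13.13 ± 0.21 (log2, standard error; adjusted p = 1.21e-21), at least 411-fold. *FEZF1*, a repressor of the early forebrain, rose from 5.07, 4.59 and 4.80 to 15.73, 15.74 and 15.65, at least 67.6-fold. *LRP2*, the endocytic receptor megalin, rose by 10.13, at least 41.8-fold, and *FRZB*, a secreted WNT antagonist, by 9.99, at least 100.1-fold. The other genes among the 20 largest rises were *PAX6*, *FEZF1-AS1*, *GREB1L*, *IGFBP5*, *ZEB1*, *SIX3*, *TSHZ2*, *PRTG*, *LHX2*, *LIX1*, *MEIS2*, *DACH1*, *MAP2*, *ZFHX4*, *SMOC1* and *EPHA4*, with rises between 7.66 and 9.82 and bounds between 5.48-fold for *TSHZ2* and 146-fold for *PRTG*. *PAX6*, *ZEB1*, *SIX3*, *TSHZ2*, *LHX2*, *MEIS2*, *DACH1* and *ZFHX4* encode transcription factors, and the others include the cell surface proteins *PRTG* and *EPHA4* and the secreted proteins *IGFBP5* and *SMOC1*.

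Among the falls was *CRIPTO*, which encodes a co-receptor of Nodal that sits on the membrane of pluripotent cells. Its levels were 17.66, 17.63 and 17.69 on day 0 and 4.63, 3.95 and 4.79 on day 7, a fall by 13.20 ± 0.26 (adjusted p = 5.98e-20), at least 564-fold. The arrays of each day lay close together and far from those of the other day. *POU5F1*, *MIR302C*, *ESRG*, *GAL*, *LINC00678*, *NANOG*, *LCK*, *BCL11A*, *TRDN*, *LINC01356*, *MIR302B*, *CLDN6*, *MIR302A*, *FLT1*, *LINC00458* and *PMAIP1* fell by at least 15.1-fold (*PMAIP1*) to at least 598-fold (*POU5F1*), with changes in signal between -11.94 and -8.74. *POU5F1P4* and *NANOGP8*, which are retrocopies of *POU5F1* and *NANOG*, and *CKMT1A*, which has a near-identical neighbour in *CKMT1B*, belonged to the same 20, but their probes may pick up the transcript of the other copy. Of these genes, *GAL* encodes the neuropeptide galanin, *FLT1* a receptor for VEGF and *LCK* a kinase best known from T cells.

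**Figure D1:**
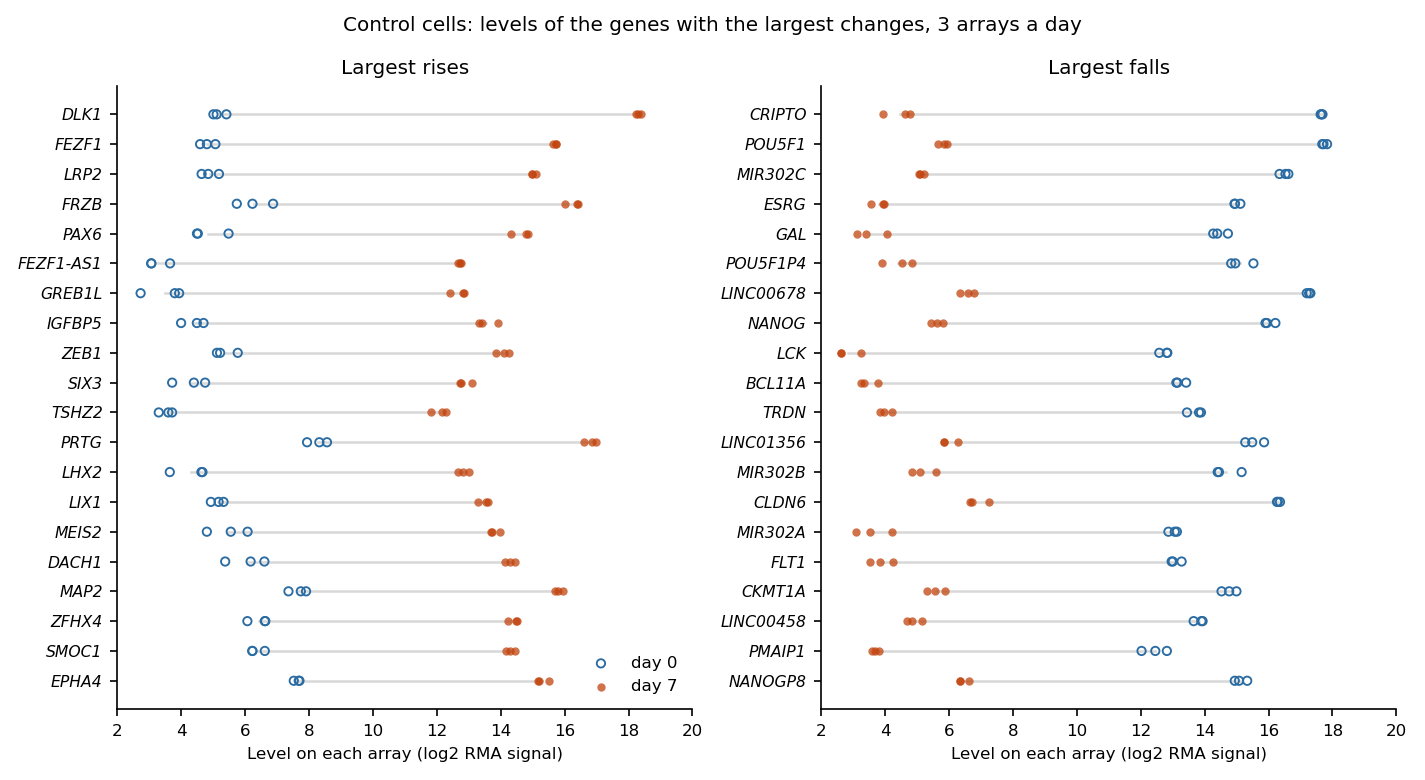
Levels on each array (x axis, log2 RMA signal) of the 20 genes with the largest rises and the 20 with the largest falls in control cells, with 3 day 0 arrays as open circles and 3 day 7 arrays as filled circles joined by a line between the means. In every row both days are far apart, by 7.66 (*EPHA4*) to 13.13 (*DLK1*) for rises and by -13.20 (*CRIPTO*) to -8.68 (*NANOGP8*) for falls, and in each row 1 of the days lies under the background level.

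Of 24 core pluripotency factors measured, 16 fell, 2 rose and 6 were not called, with a median change of -2.39 against -0.23 over all genes. The fall was not of one depth. *POU5F1*, which encodes OCT4, went from 17.83, 17.72 and 17.68 to 5.66, 5.92 and 5.85, at least 598-fold lower, and *NANOG* from 16.21, 15.95 and 15.91 to 5.61, 5.81 and 5.42, at least 181-fold lower. On day 7 both lay under the background level on all 3 arrays. *ZFP42*, also called REX1, fell by 8.43, *PRDM14*, a repressor that guards the pluripotent state, by 7.55, and *PODXL*, which carries the TRA-1-60 epitope, by 6.91. A second set of genes fell only in part within the week. *DNMT3B*, the de novo DNA methyltransferase of pluripotent cells, went from 16.75, 16.90 and 16.82 to 14.42, 14.51 and 14.31, and its mean was 11.44 on day 14 and 10.02 on day 21. *DPPA4* fell by 2.41 and *L1TD1*, which encodes an RNA-binding protein, by 2.38, to day 21 means of 7.61 and 4.24. *LIN28A*, which blocks the maturation of let-7 microRNAs, fell by only 1.42, to a day 7 mean of 15.65 ± 0.05 (SD, n = 3), and its day 21 mean was 10.44. With reference gene centring the fall of *LIN28A* was not called (-0.33). *SOX2* and *SALL2* rose, as the 2 exceptions. *SOX2*, a factor that pluripotent and neural cells share, had 14.90, 14.77 and 14.79 on day 0 and 16.60, 16.48 and 16.37 on day 7 (adjusted p = 5.07e-08), and *SALL2* rose by 2.21. *LIN28B*, *TRIM71* and *SALL4* were not called, at -0.01, 0.04 and -0.82. Centring on the reference genes brought *LIN28B* to 1.08 and *TRIM71* to 1.13.

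Genes of the naive pluripotent state, an earlier stage than that of conventional hiPSCs, were under the background level on every array of both days for all 14 members measured. Of these, 6 fell and 0 rose. *KLF4*, 1 of the classical reprogramming factors, fell by 3.82, *NLRP7*, a maternal-effect gene, by 3.40 and *TFCP2L1*, a naive-state transcription factor, by 2.61.

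Of 17 genes of the Nodal and Activin pathway, 9 fell and 0 rose, with a median of -1.03. *NODAL* itself had 10.28, 10.10 and 9.82 on day 0 and 3.74, 3.62 and 4.01 on day 7, at least 2.91-fold lower, and *GDF3*, a related ligand, fell by 5.76. Among genes that SMAD2 and SMAD3 switch on, *SMAD7*, an inhibitor of the pathway, fell by 2.65, *SKIL* by 3.68 and *PMEPA1* by 2.50. The receptor genes *ACVR1B* and *ACVR2B* were not called, at 0.30 and 0.45. *LEFTY1* and *LEFTY2*, the feedback inhibitors of Nodal, were not called either, at -0.97 and -0.47, and lay under the background level. With the arrays centred on the reference genes, 4 members rose and 6 fell.

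The microRNAs of the miR-302/367 cluster were the other defining transcripts of the pluripotent state that went down. The array measures a probe cluster on each hairpin and not the mature microRNA. The mature 3p sequences (RefSeq, GRCh38.p14, chromosome 4, minus strand) are shown because 4 of the 5 share a seed, bases 2 to 8, which is set in capitals:
hsa-miR-302a-3p: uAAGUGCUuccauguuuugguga
hsa-miR-302b-3p: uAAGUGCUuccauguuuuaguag
hsa-miR-302c-3p: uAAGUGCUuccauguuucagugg
hsa-miR-302d-3p: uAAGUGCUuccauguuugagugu
hsa-miR-367-3p: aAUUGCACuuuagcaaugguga
The seed of the miR-302 members is also that of miR-372 and miR-373, a cluster on chromosome 19, whose 3p sequences follow with that of their neighbour miR-371a:
hsa-miR-371a-3p: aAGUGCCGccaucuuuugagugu
hsa-miR-372-3p: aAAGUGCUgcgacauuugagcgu
hsa-miR-373-3p: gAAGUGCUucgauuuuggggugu
The clusters on *MIR302C* had levels of 16.62, 16.53 and 16.34 on day 0 and 5.23, 5.05 and 5.08 on day 7, at least 252-fold lower. *MIR302B* fell by 9.49, *MIR302A* by 9.41, *MIR302D* by 5.28 and *MIR367* by 4.13. All 5 hairpins of this locus fell. The hairpins with the same seed on chromosome 19 lay under the background level on both days and were not called, *MIR372* at -0.30 and *MIR373* at -0.77. Neither were those of the miR-200 family, which holds cells in an epithelial state, with changes from -0.64 for *MIR429* to 0.21 for *MIR200A*, also under background. Among 18 microRNA genes listed for pluripotent cells, 5 fell and 1 rose, *MIR20B* by 1.70, beside 2.11% of all 1470 microRNA genes that fell and 10.3% that rose. The call of *MIR20B* was lost without day 0 replicate 2 (1.17), day 7 replicate 2 (1.53) or day 7 replicate 3 (1.55). On the scale of the reference genes, 6 rose and 5 fell. Of 18 microRNA genes listed for neural cells, 1 rose, the host gene *MIR7-3HG* by 2.34, and 0 fell, while reference gene centring gave 14 and 0.

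OCT4 and SOX2 bind DNA side by side. The 250 bases before the start of *NANOG* and of *MIR302CHG*, the host transcript of the miR-302/367 cluster, were searched on both strands for 1 motif each. For *NANOG* this was the joined OCT4 and SOX2 element written as TTTGCAT, 1 base and ACAATG, and for *MIR302CHG* the full octamer ATGCAAAT. The other pairings of gene and motif are not given. Where a gene had several starts, the first with a match was taken. The joined element was found in 1 place before *NANOG*, from 120 to 107 bases upstream of the start, and is in capitals in this run (chr12:7789152-7789401, plus strand, GRCh38.p14):
NANOG: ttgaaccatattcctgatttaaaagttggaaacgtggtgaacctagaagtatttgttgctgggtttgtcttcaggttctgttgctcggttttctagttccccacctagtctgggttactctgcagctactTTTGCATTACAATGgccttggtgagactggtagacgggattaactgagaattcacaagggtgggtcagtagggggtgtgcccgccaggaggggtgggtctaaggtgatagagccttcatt
The octamer was found in 1 place before *MIR302CHG*, from 202 to 195 bases upstream, and is in capitals in this run (chr4:112650052-112650301, minus strand, GRCh38.p14):
MIR302CHG: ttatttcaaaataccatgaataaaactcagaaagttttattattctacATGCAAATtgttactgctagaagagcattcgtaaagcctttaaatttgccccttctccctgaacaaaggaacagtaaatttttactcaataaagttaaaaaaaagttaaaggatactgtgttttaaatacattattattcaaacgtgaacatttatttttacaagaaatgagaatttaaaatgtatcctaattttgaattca
Over 35116 RefSeq promoters, the same window held the octamer in 573 cases (1.63%) and the joined element in 2 (0.0057%). The motif was picked for each gene and the start by its match, so these shares do not measure how unusual the matches are. A match describes the sequence and not binding in these cells.

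Long noncoding RNAs went both ways, 7 up and 6 down of 18 listed. Those that fell are transcripts of pluripotent cells. *ESRG* had 14.95, 14.94 and 15.12 on day 0 and 3.92, 3.96 and 3.56 on day 7, at least 89.3-fold lower, *LINC00678* fell by 10.68, *LINC00458* by 8.94 and *TUNAR* by 4.46. *MIAT*, which is found in retina and brain, rose by 5.48, *SOX2-OT*, in whose intron *SOX2* lies, by 3.53, and *RMST*, a partner of SOX2 in neural cells, by 3.40. *MALAT1*, an abundant RNA of nuclear speckles, had 16.85, 16.94 and 16.93 on day 0 and 19.56, 19.47 and 19.55 on day 7, with no overlap between the days. Over all 3051 lncRNA genes, 7.64% rose and 5.24% fell.

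Epithelial adhesion genes fell as a group. Of 22 measured, 18 fell and 0 rose, with a median of -3.60, and with centring on reference genes 15 still fell and 1 rose. *CDH1*, which encodes E-cadherin, had 13.97, 14.06 and 13.94 on day 0 and 6.77, 6.29 and 6.23 on day 7 (adjusted p = 5.26e-16), at least 44.2-fold lower. *EPCAM*, a surface molecule of epithelial and pluripotent cells, went from 16.97, 16.83 and 16.77 to 9.37, 9.33 and 9.52 and stayed above the background level on all 3 day 7 arrays. The claudins of tight junctions fell too, *CLDN6* by 9.43, *CLDN7* by 7.36 and *CLDN4* by 4.70. Among keratins of simple epithelia, *KRT18* fell by 6.65 but its partner *KRT8* by 2.02, to a day 7 mean of 15.02 ± 0.16 (SD, n = 3). *ESRP1*, which directs epithelial splicing, fell by 5.42 and *GRHL2*, a transcription factor that keeps epithelia closed, by 4.52. The scaffold *TJP1* of the apical junction, which neuroepithelium also uses, was not called, at -0.37, nor was *OCLN* at -0.39. *DSP*, which anchors desmosomes, was at 0.06.

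*CDH2*, which encodes N-cadherin, had 12.65, 12.39 and 12.52 on day 0 and 14.96, 14.71 and 14.61 on day 7, so it was already well above background before induction and rose by 2.24 ± 0.18. Other cadherins of neural cells rose by more. *CDH11* rose by 5.85, *CDH6* by 4.95 and *CDH10* by 4.42. In all, 10 of 17 cadherins and protocadherins of neural cells rose and 1 fell, *PCDH10* by 3.30.

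Among factors that drive the loss of epithelial character, *ZEB1*, a repressor of *CDH1*, had 5.22, 5.77 and 5.12 on day 0 and 14.26, 14.10 and 13.86 on day 7, at least 21.8-fold higher, and its mean was 15.48 on day 14 and 16.07 on day 21. *ZEB2* rose by 4.77 and *SNAI2* by 3.50. *SNAI1* fell by 1.81, though under the background level on both days, and *TWIST1* was at -0.31. Structural genes of mesenchymal cells went both ways. *MMP14*, a membrane-bound matrix protease, fell by 3.85 and *FN1*, fibronectin, rose by 2.62. *COL1A1* was at 0.59, *DCN* at 0.08 and *PRRX1* at 0.24, none of them called, and *TAGLN*, an actin-binding protein of contractile cells, fell by 3.04. *ACTA2*, smooth muscle actin, rose by 3.29, to a day 7 mean of 10.28 ± 0.27, and its day 21 mean was 6.03. Of 19 genes on this list 6 rose and 5 fell, and reference gene centring made that 12 and 2.

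Of 26 laminins, collagens and integrins, 14 rose and 5 fell. *LAMA1*, the laminin alpha chain of the neuroepithelial basement membrane, had 11.37, 10.99 and 10.81 on day 0 and 15.09, 15.34 and 15.25 on day 7. *LAMB1* rose by 2.31, *LAMC1* by 1.40 and *NID1*, which links laminin to collagen, by 2.68. Among collagens, *COL11A1* rose by 6.58, *COL4A5* by 4.30 and *COL2A1* by 3.99. The 5 that fell were all integrins. *ITGB1*, the common beta chain, fell by 1.12, and *ITGA3* and *ITGB5* by 1.54 and 1.46, whereas *ITGAV* rose by 2.19. With reference gene centring 0 members fell. The coating of the dish also changed, and its part in these values was not tested.

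Of 20 neural plate factors, 11 rose and 1 fell, with a median of 2.97. *PAX6*, a factor of the early human neuroectoderm, had 5.48, 4.52 and 4.49 on day 0 and 14.85, 14.79 and 14.31 on day 7 (adjusted p = 8.43e-18), at least 32.4-fold higher. Its mean was 12.92 on day 14 and 5.01 on day 21, so that the day 7 level was the highest of the 4 days. *MEIS2*, a homeodomain partner of PAX6, rose by 8.33, *DACH1* by 8.24, and *ZNF521*, which promotes the neural fate of embryonic stem cells, from 8.55, 8.32 and 8.13 to 15.72, 15.85 and 15.49, at least 66.6-fold. *SOX11* rose by 4.65 and *SOX21* by 4.93. *SOX1*, often the first marker of neuroectoderm in mouse, was not called, with 6.60, 6.86 and 6.88 on day 0 and 6.68, 6.11 and 6.96 on day 7, all under the background level. It reached a mean of 11.97 on day 14. *OTX2*, present in pluripotent and forebrain cells, was not called, at 0.57, with day 0 levels of 13.14, 12.99 and 13.19. *POU3F3*, a POU factor of neural progenitors, was at -0.41 and had a day 14 mean of 12.91. The 1 fall was that of *TFAP2C*, a factor of the germ line and the surface ectoderm, by 4.53.

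Of 22 forebrain and eye field factors, 10 rose and 1 fell. *SIX3*, which defines the anterior tip of the neural plate, had 4.75, 4.4 and 3.72 on day 0 and 13.10, 12.72 and 12.77 on day 7, and *LHX2*, a factor of the cortex and eye field, 4.63, 4.66 and 3.64 and 13.01, 12.83 and 12.65. The 2 days were separate on every array for both, with bounds of at least 9.41-fold and 9.22-fold. *FEZF2* rose by 4.44, and *LHX5* and *NR2F1* by 3.45 and 3.34. The eye field factors *RAX*, *SIX6* and *VAX1* rose by 2.52, 1.77 and 1.80 but remained under the background level on all day 7 arrays. Factors of the later dorsal forebrain had no rise called. *EMX2* was at 0.40 and *NR2E1* at -0.94, with day 14 means of 13.95 and 9.24. *EMX1* fell by 1.74, under background throughout.

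Factors of more posterior brain and spinal cord gave little signal. Of 15 midbrain and hindbrain factors only *FGF8* was called, from 6.57, 6.80 and 7.30 on day 0 to 13.57, 13.53 and 13.61 on day 7, a rise by 6.68 ± 0.32 in signal and at least 15.4-fold. FGF8 is a signal of the midbrain-hindbrain boundary and also of the anterior neural ridge at the front of the forebrain. Its mean was 8.85 on day 14 and 6.31 on day 21. The other 14 members had changes from -0.84 for *EN1* to 0.09 for *GBX2*, and among them *PAX2*, *WNT1*, *EN2* and *LMX1A* lay under the background level on all 6 arrays. The 7 *HOX* genes measured, from *HOXA2* to *HOXD4*, changed by -0.77 to 0.05, with 0 rises and 0 falls, and none was above background. Reference gene centring called 6 rises among the midbrain and hindbrain factors and 1 among the *HOX* genes. Of the *ZIC* family, which acts in the neural plate and the dorsal midline, *ZIC1* had 6.09, 4.45 and 5.74 on day 0 and 12.39, 11.78 and 11.03 on day 7, at least 4.31-fold higher, *ZIC2* rose by 1.90, and *ZIC4* and *ZIC5* were not called. *ZIC5* was already at a mean of 11.99 ± 0.08 on day 0.

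Of 23 genes of neural progenitors and radial glia, 14 rose and 3 fell. *FABP7*, a fatty acid binding protein of radial glia, had 10.45, 10.59 and 10.19 on day 0 and 15.42, 15.51 and 15.20 on day 7, and *MSI1*, an RNA-binding protein of neural stem cells, 11.77, 11.63 and 11.68 and 15.44, 15.58 and 15.60. *PTPRZ1*, a receptor phosphatase, rose by 2.69, *CRB2*, which sets apical polarity, by 4.49 and *VIM*, the intermediate filament vimentin, by 2.10. *NES*, which encodes nestin, was not called, with 12.45, 12.71 and 12.50 on day 0 and 13.54, 13.35 and 13.49 on day 7, a change of 0.90 from a level that was high before induction. *SLC1A3*, a glutamate transporter of glia, fell by 1.47 and *DCLK1*, a kinase on microtubules, by 4.64. *PROM1*, also a marker of stem cells, fell by 2.71, and the day 14 means of the last 3 were 11.17, 11.00 and 14.44.

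Of 19 genes of the Notch pathway, which holds progenitors back from becoming neurons, 10 rose and 2 fell. Among ligands, *DLL1* had 6.56, 5.88 and 5.59 on day 0 and 12.49, 12.43 and 12.52 on day 7, at least 7.22-fold higher, *JAG1* rose by 3.47, and *DLL3*, which acts inside the cell, fell by 3.15. Of the receptors, *NOTCH2* rose by 2.85, *NOTCH3* by 1.35 and *NOTCH1* by 1.05, a call that was lost without day 0 replicate 1 (0.82). Among the target repressors, *HES5*, the target of neural progenitors, had 5.59, 5.29 and 5.11 and 9.66, 9.67 and 9.82, at least 1.06-fold higher, with no overlap and with day 14 and day 21 means of 11.19 and 13.09. *HES1* rose by 2.31. *HEY2* went the other way, from 11.95, 11.79 and 11.86 on day 0 to 4.51, 5.0 and 4.52 on day 7, at least 10.2-fold lower, while its relative *HEY1* rose by 1.67.

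Few factors of neuronal differentiation were called on day 7. Of 16 proneural and early differentiation factors, *NEUROG2* and *MYT1* rose, by 1.74 and 1.13, with every array under the background level, and 0 fell. The other 14 had changes between -0.77 for *NHLH2* and 0.82 for *NHLH1*, and reference gene centring called 8 rises. Of 21 genes of early neurons 8 rose and 8 fell, and 10 and 4 with reference gene centring. *MAP2*, which stabilizes microtubules of dendrites, had 7.36, 7.74 and 7.91 on day 0 and 15.79, 15.96 and 15.71 on day 7, at least 73.2-fold higher, *NCAM1* rose by 3.96 and *STMN2*, a tubulin-binding protein of growing axons, by 2.64. *DCX*, the doublecortin of migrating neurons, rose by 1.21, to a mean of 9.76 ± 0.19 (SD, n = 3), against means of 14.70 on day 14 and 16.62 on day 21. Without day 0 replicate 2 it was not called (0.98). Other genes of axons were present in pluripotent cells and fell. *INA*, a neurofilament protein, had 13.03, 13.25 and 13.08 on day 0 and 10.82, 10.65 and 10.23 on day 7, *GAP43*, a growth cone protein, fell by 3.05 and *L1CAM*, an adhesion molecule of axons, by 2.62. *RBFOX3*, the gene of the marker NeuN, fell by 3.09 and had a day 21 mean of 5.49. *ELAVL3* and *SNAP25* were not called, at -0.64 and -0.83.

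**Figure D2:**
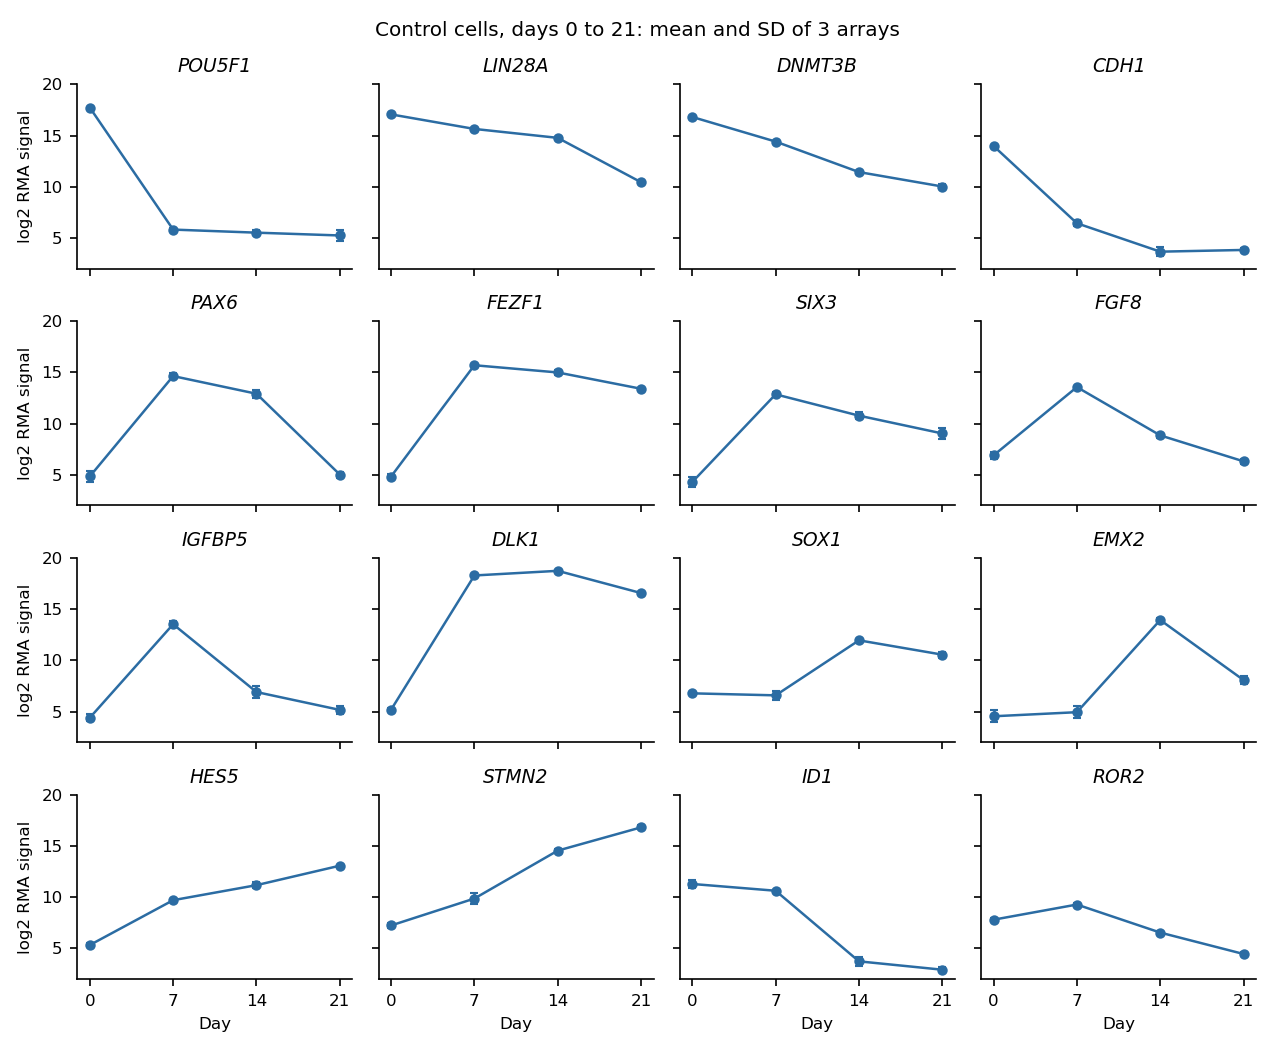
Mean level (y axis, log2 RMA signal) with SD of 3 arrays in control cells on days 0, 7, 14 and 21 (x axis) for 16 genes named in the text. *POU5F1* and *CDH1* reached low levels by day 7, *LIN28A* and *DNMT3B* went down over 3 weeks, *PAX6*, *FGF8* and *IGFBP5* peaked on day 7, and *SOX1* and *EMX2* were low on day 7 and high on day 14.

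Genes of the BMP pathway, the other branch of SMAD signalling, moved in both directions. The ID genes are direct targets of BMP and inhibit differentiation factors. *ID1* was not called, with 11.19, 10.97 and 11.74 on day 0 and 10.58, 10.60 and 10.74 on day 7, and had a day 14 mean of 3.73. *ID3* fell by 2.77. *ID2* rose from 8.21, 8.93 and 8.08 to 13.63, 13.71 and 13.46, at least 15.7-fold, and *ID4* rose by 2.57. *BAMBI*, a pseudoreceptor that BMP induces, fell by 4.87 and the ligand gene *BMP4* by 2.87, whereas *BMP7*, *BMP2* and the receptor gene *BMPR1B* rose by 1.45, 1.28 and 2.07. The antagonists *NOG* and *CHRD* were not called, at -0.12 and -0.68. In all 5 of 21 pathway genes rose and 4 fell.

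FGF ligands and the feedback genes of ERK, the kinase that FGF activates, also moved apart. Of 24 genes, 7 rose and 10 fell, a balance that turned to 10 and 6 with centring on bright protein-coding genes. Besides *FGF8*, *FGF9* rose by 3.91. *FGF2*, the factor that sustains pluripotent cells, fell by 1.33, and of its receptors *FGFR2* and *FGFR4* fell by 2.53 and 2.68 while *FGFR1* was at 0.74. Among the feedback inhibitors, *SPRY4* had 13.64, 13.84 and 13.64 on day 0 and 8.17, 8.78 and 8.05 on day 7 but *SPRY1* 13.44, 13.33 and 13.24 and 15.67, 15.60 and 15.42. *SPRY2* rose by 2.54. The ERK phosphatase *DUSP5* fell by 5.96 and the transcription factor *ETV4* by 5.54, whereas their relatives *DUSP4* and *ETV5* had changes of 1.03 and 0.93, the second not called and the first not called without day 0 replicate 2 (0.78) or day 7 replicate 1 (0.90). *DUSP6* fell by 1.23, and its mean was 8.86 on day 14 and 4.80 on day 21.

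Of 29 WNT ligands and receptors, 9 rose and 5 fell. *FZD3*, a Frizzled receptor of axon tracts, had 11.54, 11.37 and 11.66 on day 0 and 15.92, 16.01 and 15.88 on day 7, and *FZD5*, a receptor of the eye field, 10.79, 10.61 and 10.44 and 14.77, 15.04 and 14.68. *FZD7*, the Frizzled of pluripotent cells, fell by 1.43. *ROR2*, the target of the shRNA in the other cell line, had 8.02, 7.76 and 7.64 on day 0 and 9.19, 9.28 and 9.40 on day 7, a difference of 1.48 ± 0.26 in measured signal (adjusted p = 1.04e-04), and its mean was 6.55 on day 14 and 4.45 on day 21. It lay under the background level on all day 0 arrays and above it on all day 7 arrays. Its day 7 levels were under the background level of the day 0 arrays, so no bound on its fold is given. Its ligand gene *WNT5A* rose by 1.74, under the background level, and *WNT5B* by 1.93. *ROR1*, its close relative, fell from 15.56, 15.47 and 15.41 to 12.80, 12.97 and 12.45. Among secreted antagonists besides *FRZB*, *SFRP1* rose by 1.35, while *SFRP2* was not called and had the high levels of 16.51, 16.58 and 16.50 already on day 0. Readouts of beta-catenin gave no common direction. *AXIN2* fell by 2.33, *ZNRF3*, which removes Frizzled receptors, by 1.74 and *NKD2* by 1.37, but *LEF1* rose by 4.15, *SP8* by 3.82 and *LGR5* by 1.84. *TCF7L1*, a repressor of WNT targets in pluripotent cells, fell by 3.61. Over the 26 antagonists and targets 5 rose and 7 fell, and 11 and 2 with reference gene centring.

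Among genes that receive hedgehog signals, 7 of 16 on the list of ventral patterning rose and 1 fell. *GLI3*, which represses hedgehog targets where no ligand is present, had 9.95, 9.96 and 9.63 on day 0 and 14.02, 14.04 and 13.65 on day 7. The co-receptor genes *BOC* and *CDON* rose by 5.26 and 3.60 and *GLI2* by 3.58. *SHH*, the ligand gene, was not called, at -0.19 and under background. *GLI1*, a target of the pathway, fell by 1.75, and *PTCH1*, receptor and target, rose by 1.02, close to the threshold and not called without day 0 replicate 2 or 3 or day 7 replicate 2 (0.96, 0.99 and 0.91). The ventral factors *NKX2-1*, *NKX2-2*, *NKX6-1* and *OLIG2* were not called, with changes from -0.41 to 0.03, and *NKX2-1* had a day 21 mean of 13.00. In the retinoic acid pathway, which makes neural tissue posterior, 2 of 14 genes rose and 5 fell, against 4 and 3 with reference gene centring. *CRABP2*, a carrier of retinoic acid, rose by 2.52, while *CYP26A1*, which degrades it, fell by 2.49 and *RDH10*, an enzyme of its synthesis, by 2.42.

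Genes of cell guidance rose in 10 and fell in 8 of 30 cases. *EPHA4*, an ephrin receptor, had 7.70, 7.68 and 7.52 on day 0 and 15.16, 15.51 and 15.20 on day 7, at least 50.7-fold higher, *EFNB1* rose by 5.24 and *EFNA5* by 5.07. *EPHA1* fell from 11.30, 11.05 and 10.97 to 4.90, 5.24 and 4.46, at least 6.01-fold, the reverse of *EPHA4*. Among growth factors and chemokine receptors, 9 of 22 rose and 5 fell. *IGFBP5*, which binds insulin-like growth factors, had 4.49, 4.0 and 4.70 on day 0 and 13.41, 13.90 and 13.32 on day 7, at least 15.1-fold higher, and its mean was 6.91 on day 14 and 5.16 on day 21. *IGFBP3* rose by 7.21, to a mean of 14.74 ± 0.05 (SD, n = 3), and had a day 21 mean of 4.18. *PTN*, a heparin-binding growth factor, rose by 3.79 and the chemokine receptor gene *CXCR4* by 3.28. *KIT*, the receptor of stem cell factor, fell by 3.47 and its ligand gene *KITLG* by 1.55.

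Genes of DNA replication fell, 17 of 23 with 0 rises and a median of -1.99, and with reference gene centring 9 fell and 2 rose. *MCM5*, a subunit of the replicative helicase, had 14.02, 13.92 and 14.06 on day 0 and 9.81, 10.25 and 10.44 on day 7. *RRM2*, which makes deoxynucleotides, fell by 3.72 and *CDT1*, which loads the helicase, by 3.76. Mitotic genes went both ways. *MKI67*, the gene of the proliferation antigen Ki-67, rose from 13.00, 12.71 and 13.12 to 14.86, 14.63 and 14.31 and *TOP2A* by 1.04 (0.98 and not called without day 7 replicate 1), while *CDC20*, an activator of the anaphase-promoting complex, fell by 3.33 and *PLK1*, a mitotic kinase, by 1.61. Of 20 mitotic genes 4 rose and 8 fell, and 6 and 1 with reference gene centring. In G1 control, *MYC* had 11.37, 11.32 and 11.54 on day 0 and 5.70, 5.27 and 5.44 on day 7, at least 7.4-fold lower, and *CCNE1*, the cyclin that pluripotent cells hold high, fell by 4.28. *CDKN1B*, which encodes the inhibitor p27, rose by 1.93. The totals were 1 up and 7 down of 17.

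Serine, one-carbon and amino acid genes, many of them targets of the stress factor ATF4, fell as a group. Of 20, 18 fell and 0 rose, with a median of -3.41, and 16 fell with reference gene centring. *CHAC1*, which breaks down glutathione, had 13.59, 13.09 and 13.36 on day 0 and 5.33, 4.79 and 4.76 on day 7, at least 28.4-fold lower. *SLC7A5*, which imports large neutral amino acids, had 15.51, 15.03 and 15.26 and 7.60, 7.78 and 7.64, at least 107-fold lower. *ASNS*, which makes asparagine, fell by 5.51, *MTHFD2*, a mitochondrial folate enzyme, by 5.11, *PHGDH*, the first enzyme of serine synthesis, by 4.04 and *ATF4* itself by 2.53. *DDIT3* was not called, at -0.04, and was under the background level. The medium changed at the same time, and its part in these falls cannot be told apart from that of differentiation.

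Of 23 genes of glycolysis and hypoxia 15 fell and 0 rose, and 7 and 3 with reference gene centring. *HK1*, which phosphorylates glucose, had 13.74, 13.81 and 13.69 on day 0 and 9.74, 9.68 and 9.81 on day 7, *GPI* fell by 3.15 and *PFKP* by 3.07. Of the glucose transporters *SLC2A3* fell by 2.29 and *SLC2A1* was not called, at 0.02. In cholesterol synthesis 9 of 16 genes fell and 1 rose, but 4 and 5 with reference gene centring. *FDPS* fell by 2.57 and *DHCR7*, which catalyses the last step to cholesterol, by 2.43, to return to day 14 means of 15.06 and 15.12, beside day 0 means of 15.04 ± 0.10 and 15.12 ± 0.05. The first enzyme of the pathway listed, *HMGCS1*, was at 0.28. Of 11 reference genes 7 fell and 0 rose, *TFRC*, the transferrin receptor, by 2.90 and *ACTB*, beta-actin, by 1.77.

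**Figure D3:**
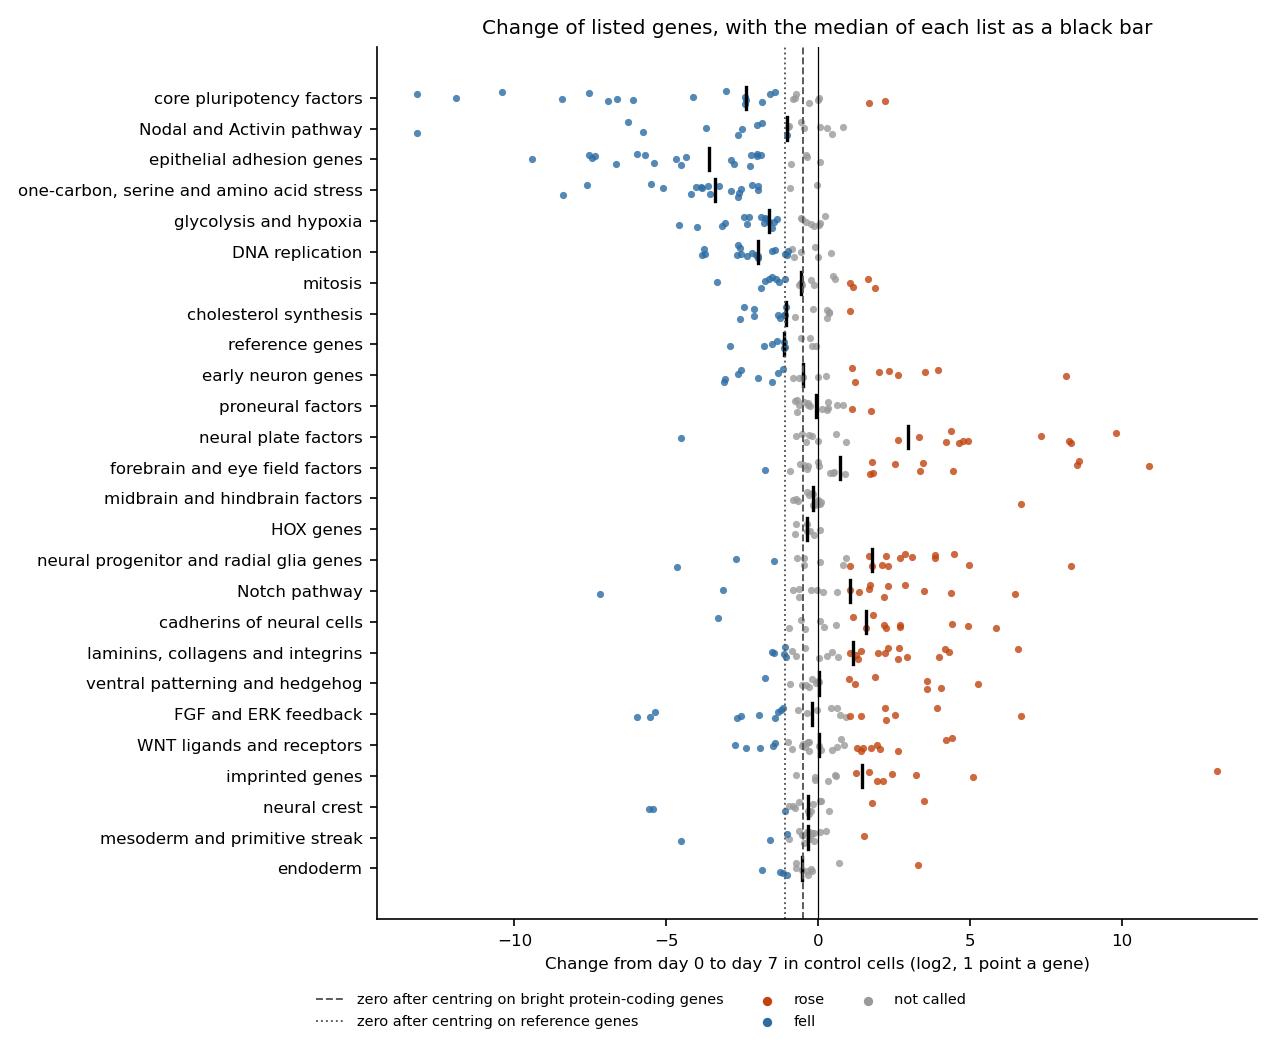
Change from day 0 to day 7 in control cells (x axis, log2) of each measured gene of 26 lists, 1 point per gene, in red where it rose, in blue where it fell and in grey where it was not called, with the median of each list as a black bar. Dashed and dotted lines mark where no change lies after centring on bright protein-coding genes (-0.49) or reference genes (-1.09); medians of epithelial adhesion (-3.60) and amino acid stress (-3.41) lie left of both and that of neural plate factors (2.97) right of zero.

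Chromatin regulators changed in both directions, 6 up and 7 down of 27, and 14 and 2 with reference gene centring. *TET2*, which oxidizes methylated cytosine, rose from 6.73, 6.54 and 6.50 to 10.39, 10.06 and 9.49, at least 1.28-fold, and *DNMT3B* was the 1 DNA methyltransferase gene that fell. *PHC1*, a subunit of the Polycomb complex PRC1, fell from 16.88, 16.74 and 16.61 to 12.95, 13.09 and 12.82, whereas *EZH2* and *SUZ12* of PRC2 were not called, at 0.71 and 0.73. RNA-binding regulators rose in 10 and fell in 5 of 27 cases. *MBNL2*, a splicing regulator of differentiated cells, had 5.86, 5.93 and 6.20 on day 0 and 11.83, 11.52 and 11.12 on day 7, at least 3.64-fold higher, *MSI2* rose by 2.96 and *NOVA1*, a neuronal splicing factor, by 2.49. *ESRP1* and *RBFOX3* were among the falls.

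Imprinted genes, which are read from 1 parental copy, rose in 8 of 14 cases with 0 falls and a median of 1.45. Besides *DLK1* there was *NNAT*, neuronatin, a membrane protein of neuroendocrine cells, with 8.44, 8.12 and 8.18 on day 0 and 13.86, 13.44 and 12.69 on day 7, at least 13-fold higher. *KCNQ1OT1*, the long antisense RNA of an imprinted domain, rose by 3.23, and *IGF2* by 2.43, under the background level. *MEST* rose from 15.61, 15.62 and 15.50 to 17.22, 17.37 and 17.13. *NDN* and *GRB10* were not called, at -0.10 and -0.10. The arrays do not tell the parental copies apart.

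Markers of other lineages were mostly low. Over 18 mesoderm and primitive streak genes the mean level per array was 5.0 to 5.32 on day 0 and 4.50 to 4.70 on day 7, with 1 rise and 3 falls. *TBXT*, the defining gene of the streak, was not called, at -0.95, and *MIXL1* fell by 1.59, both under background. *KDR*, a VEGF receptor, had 9.76, 9.04 and 9.26 on day 0, a little under the background level of each array, and fell by 4.50. For 13 endoderm genes the mean levels were 4.77 to 4.88 and 4.47 to 4.51, with *SOX17*, *FOXA2*, *GATA4* and *GATA6* under background on all 6 arrays, and the 1 rise was that of *CXCR4*. For 17 trophoblast, amnion and surface ectoderm genes they were 4.96 to 4.99 and 4.71 to 4.87, with *IGFBP3* and *DLX5* as the rises and *GATA3*, *CGA* and *KRT5* under background. For 16 neural crest genes they were 5.67 to 5.74 and 5.0 to 5.10. *SNAI2* and *SOX9* were the rises there, *SOX10*, *FOXD3*, *TFAP2A* and *PAX3* were not called and under background, and *ERBB3*, a neuregulin receptor, and *ETS1* fell by 5.57 and 5.44 from day 0 means of 12.81 ± 0.27 and 10.14 ± 0.34. For 13 blood, endothelial and immune genes they were 5.27 to 5.45 and 4.31 to 4.57. There *AIF1*, a gene best known from microglia and macrophages, had 13.20, 13.11 and 13.43 on day 0 and 7.55, 7.26 and 7.17 on day 7, at least 26.5-fold lower, while *PTPRC*, which marks all leukocytes, was not called, at -0.09, and lay under background. With reference gene centring the rises and falls became 3 and 1 for mesoderm, 2 and 0 for endoderm, 6 and 2 for trophoblast, 5 and 2 for neural crest, and 2 and 1 for blood, endothelial and immune genes, of which 0 rose and 3 fell before.

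Classes of RNA differed in the balance of rises and falls. Of 17579 protein-coding genes, 10.9% rose and 26.8% fell, with a median of -0.44. Of 220 snoRNA genes, small RNAs many of which guide the modification of ribosomal RNA, 44.1% rose and 5.0% fell, with a median of 0.62. Tandem arrays of similar copies in imprinted domains held many rises, 20 of 22 *SNORD115* genes and 26 of 39 *SNORD113* and *SNORD114* genes. Such copies are not independent measurements. The medians of microRNA and lncRNA genes were 0.07 and -0.11. Among the 98455 clusters without a symbol, 9820 rose and 3202 fell. Among the 37295 clusters with one, 3902 rose and 6329 fell. Set against the size of each set, rises were about as frequent in both, and falls were rarer among clusters without a symbol.

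**Figure D4:**
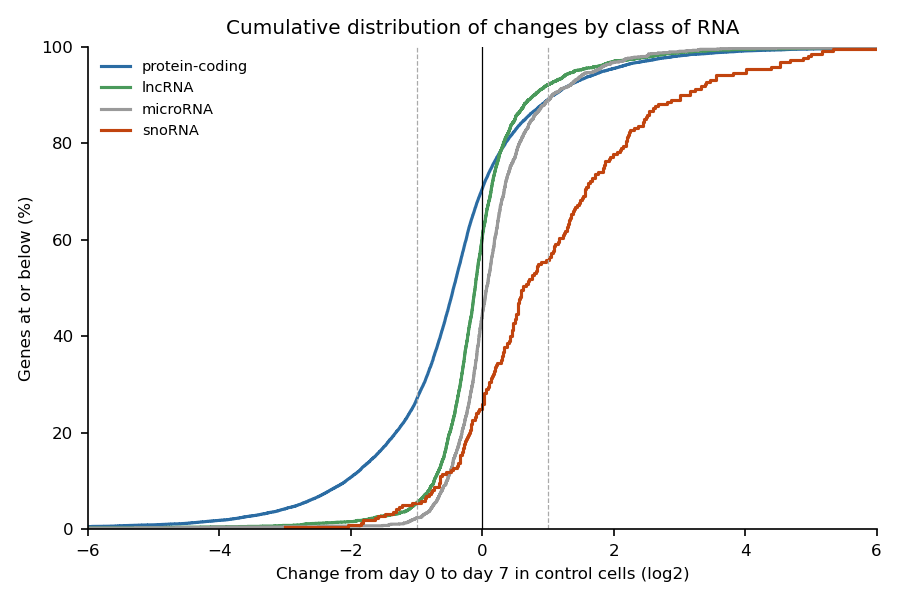
Share of genes (y axis, %) at or below a given change from day 0 to day 7 in control cells (x axis, log2) for protein-coding, lncRNA, microRNA and snoRNA genes, with dashed lines at a 2-fold change. The protein-coding curve lies to the left, with a median of -0.44, and the snoRNA curve to the right, with a median of 0.62.

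In *ROR2* KD cells the knocked-down gene itself had 4.54, 5.95 and 5.39 on day 0 and 6.78, 6.90 and 6.34 on day 7, below every control array of the same day, a difference of 1.38 between the days beside 1.48 in control cells. The same week in these cells gave 3652 rises (10.9% of genes) and 4984 falls (14.8%). The changes of the lines were taken from different arrays. All arrays shared the same fit and its estimate of the spread, however, so the calls in the lines are not independent. Of the rises in control cells 2767 were rises in *ROR2* KD cells as well, 80.7% of the control list and 75.8% of the other. For falls it was 4292 genes, 73.5% and 86.1%. For leading genes the changes in control and *ROR2* KD cells were 13.13 and 13.20 for *DLK1*, 9.82 and 10.29 for *PAX6*, -11.94 and -11.91 for *POU5F1*, and -7.56 and -8.52 for *CDH1*. None of these 4 differences was called. The test of the difference itself called 25 genes, 16 with a higher change in *ROR2* KD cells (0.0476% of genes) and 9 with a lower one (0.0268%), and 3324 had an unadjusted p under 0.05.

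Of genes described above, *NNAT* rose by 5.09 in control cells but by 1.52 in *ROR2* KD cells, whose arrays read 6.80, 6.89 and 7.32 on day 0 and 9.25, 8.52 and 7.79 on day 7. On both days the *ROR2* KD arrays lay below all control arrays, by more on day 7, and the difference of -3.57 ± 0.49 was called (adjusted p = 0.0123). *NNAT* lay under the background level on all day 0 arrays of both lines and on *ROR2* KD day 7 replicate 3. The difference is thus one of measured signals. *ESRP1* fell by 5.42 in control cells, to 11.51, 11.40 and 11.26, and by 8.38 in *ROR2* KD cells, to 9.25, 7.88 and 8.15, so its arrays of day 7 did not overlap between the lines (adjusted p of the difference = 0.0127). On *ROR2* KD day 7 replicates 2 and 3 *ESRP1* lay under the background level. *MIR3171* rose by 2.52 in control cells and fell by 2.32 in *ROR2* KD cells, in measured signals that were under the background level throughout. *CAPN6*, a calpain without protease activity, rose by 3.12 in control cells and by 5.58 in *ROR2* KD cells, and *TIMP3*, an inhibitor of matrix proteases, had -0.60 and 1.83. *GFRA1*, a receptor of GDNF, rose by 1.49 and 3.55, and *BNIP3*, a mitochondrial protein induced in hypoxia, had 0.21 and -1.39. How many genes this test called depended on single arrays, from 8 to 82 with 1 array left out, and 7 of the 25 were called in all of these fits: *GMPR*, *GRM3*, *FAM24B-CUZD1*, *MIR3171*, *KCNK10*, *DIPK1C* and *NNAT*.

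**Figure D5:**
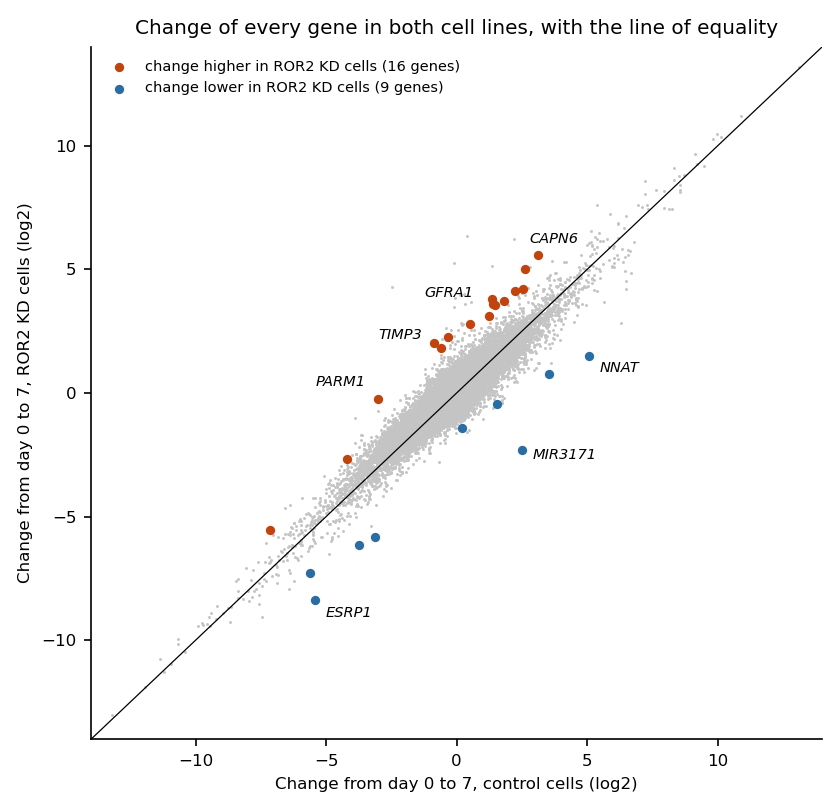
Change from day 0 to day 7 of every gene in control cells (x axis, log2) and *ROR2* KD cells (y axis, log2), 1 grey point per gene, with the line of equality. The 16 red and 9 blue points are the genes whose change differed between the lines, among them *NNAT* (5.09 and 1.52) and *ESRP1* (-5.42 and -8.38).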

How the data were processed

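Total RNA of 24 samples was labelled with biotin and hybridized to Clariom D arrays. The values deposited by the authors are log2 signals that RMA in Transcriptome Analysis Console, per the submitters' processing notes, corrected for background, normalized between arrays and summarized to 1 value per transcript cluster. The study names a version of the Console for array quality control and for its own adjusted p-values, but the version that made these values and the genome build are not given in the sources used here. RMA compresses low signals, so changes of dim genes are understated. The table holds 138745 probe sets, of which 2995 are array controls and were not tested. The platform annotation gave 1 symbol to 36176 clusters, several to 1119 and none to 98455, and 25516 of 25555 Entrez IDs were found in RefSeq with 0 symbols updated. Where several clusters named the same gene, the brightest over the 24 arrays was taken. Arrays give no read depth, and their number limits the precision. Correlations between arrays over all clusters were 0.9755 to 0.986 within control day 0 or day 7 and 0.906 to 0.9152 between them, and 0 pairs of arrays were identical.

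Groups were taken from the sample labels. Group means of all 24 arrays were fitted in limma 3.58.1 under R 4.3.3 (16 residual and 6.36 prior degrees of freedom), with the contrasts day 7 minus day 0 in control cells, the same in *ROR2* KD cells, and their difference. Two-sided p-values were adjusted over all 135750 clusters (Benjamini-Hochberg). A gene was called where its fold change exceeded 2 and its adjusted p lay under 0.05. On simulated data for the control contrast, with 50 of 135750 clusters changed at each size, the fit called 27 at a log2 change of 1.5, 44 at 2 and 49 at 3. In the data a far larger share of clusters was called, and the adjusted p depends on that share, so these counts need not hold there. Named are the 20 genes with the largest change in each direction whose days do not overlap, members of 42 gene lists (751 of 844 symbols measured), up to 10 genes per direction with the largest difference between lines, and *ROR2*. The comparison and the lists were chosen with earlier results of these data known. Lists are described by counts and medians, with no test of their own. Means of days 14 and 21 are given with no test. Alternatives were other sets of arrays, scalings, moderation, weights, filters, thresholds, an unpaired t-test as in the study's methods, and each array left out in turn. MicroRNA and promoter sequences are from RefSeq (GRCh38.p14). Genes on which donor sex would show are not reported.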

Additional observations from a re-analysis of the deposited data

Results flagged for a closer look

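The change from day 0 to day 7 differed between *ROR2* KD and control cells, by the test of the difference in limma, for 19 genes reported here, the 10 with the largest positive and all 9 with negative differences (log2, *ROR2* KD minus control). Positive differences were 2.89 for *MIR3143*, 2.77 for *PARM1*, 2.63 for *U3*, a snoRNA name, 2.47 for *CAPN6*, 2.44 for *GRM3*, a glutamate receptor gene, 2.43 for *TIMP3*, 2.39 for *EYA4*, 2.31 for *DIPK1C*, 2.23 for *KCNK10*, a potassium channel gene, and 2.06 for *GFRA1*. *GRM3* had 8.95, 9.12 and 8.99 on day 7 in control cells and 10.54, 10.64 and 10.60 in *ROR2* KD cells, and the lines did not overlap on that day. Negative differences were -4.84 for *MIR3171*, -3.57 for *NNAT*, -2.96 for *ESRP1*, -2.76 for *GMPR*, an enzyme of purine metabolism, -2.68 for *FAM24B-CUZD1*, -2.42 for *CUZD1*, -1.98 for *MIR641*, -1.67 for *MT1E* and -1.60 for *BNIP3*. *FAM24B-CUZD1* is a readthrough of *CUZD1*, so both can reflect the same transcript. *GMPR* rose from 8.68, 8.20 and 8.48 to 11.73, 12.12 and 12.12, at least 5.14-fold, in control cells, while the *ROR2* KD arrays read 9.32, 8.59 and 9.24 and 10.14, 9.27 and 10.06. *MIR3171* read 4.22, 4.47 and 3.31 and 6.69, 6.05 and 6.82 in control cells and 6.81, 6.69 and 5.72 and 3.99, 4.11 and 4.17 in *ROR2* KD cells, all under the background level of the control arrays.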

How the results depend on the processing

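In control cells the 3427 rises and 5838 falls, 9265 changed genes in all, came to 1899 and 2797 (4696) among clusters above background on at least 3 of the arrays compared, which leaves fewer genes to test, and to 1290 and 2145 (3435) at a fold change above 4. Of scalings chosen after seeing the data, centring on bright protein-coding genes gave 5831 and 3524, and centring on reference genes 13954 and 1946 (15900). With 1 array left out there were 3268 to 3518 rises and 5683 to 6098 falls. The other settings, among them median centring, quantile normalization, array weights and the methods' t-test (3371 and 5751 at an unadjusted p under 0.05, 2756 and 4969 after Benjamini-Hochberg), kept each count within 1.5 times. The 25 genes whose change differed between the lines became 11 with only the arrays compared, 51 with a variance trend, 152 among bright clusters, 43 adjusted over the reported genes, 16 at a fold above 4, 0 at an adjusted p under 0.01 (limma, beside 3324 at an unadjusted p under 0.05) and 62 without the 4 arrays of highest median, a setting added after seeing the data. With 1 array left out they ranged from 8, without control day 7 replicate 1 or *ROR2* KD day 0 replicate 3, to 82, without *ROR2* KD day 7 replicate 1, and the count also moved by over 1.5 times without control day 0 replicate 3 (15), control day 7 replicates 2 and 3 (13 and 10) and *ROR2* KD day 7 replicates 2 and 3 (12 and 45). The cause was not tested. Equal replicate numbers did not pair arrays (residual correlations from -0.036 to 0.04), and with the replicate number as a block 3423 genes rose and 5837 fell in control cells, 38 differed between the lines, and the call of 0 named genes was lost. Of 248 called genes named in the text, 240 kept their call with only the arrays compared, with the block, with median centring, with quantile normalization and with any 1 array left out. *BMP2* (0.96), *DUSP4* (0.81), *DUSP6* (-0.96) and *NOTCH1* (0.68) lost it with quantile normalization, and *DCX*, *DUSP4*, *MIR20B*, *NOTCH1*, *PTCH1* and *TOP2A* with 1 array left out. With reference gene centring 18 lost it, all of them falls (*ACTB*, *DUSP6*, *EMX1*, *FGF2*, *FZD7*, *GLI1*, *ITGA3*, *ITGB1*, *ITGB5*, *KITLG*, *KRT8*, *LIN28A*, *MIXL1*, *NKD2*, *PLK1*, *SLC1A3*, *SNAI1* and *ZNRF3*), and 26 gained one. Besides these 26, which kept their sign, genes that were not called changed there from a negative value to a called rise. They were *LIN28B* (1.08), *DDIT3* (1.05), *GATA3* (1.05), *OLIG2* (1.02) and *PTPRC* (1.0). Signal over background limits genes that lie under the background level on both days.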

Other observations

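Some gene families that are on none of the lists moved together, and they were picked after their values had been seen, so no test is given. Of 18 metallothionein genes and pseudogenes, which bind zinc and copper, 16 fell and 0 rose, with a median of -5.45. *MT1X* had 17.17, 16.86 and 17.00 on day 0 and 8.52, 9.03 and 9.24 on day 7, and *MT1G* and *MT2A* fell by 7.07 and 5.43. These genes are near copies, so probes may be shared between them. Of 52 histone genes 41 fell and 0 rose, with a median of -1.82. *H3C1* fell by 3.28 and *H2BC14* by 3.62. With centring on reference genes such falls are 1.09 smaller.

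Small nucleolar RNAs of imprinted domains were among the rises. Of 22 *SNORD115* genes measured, a tandem array on chromosome 15, 20 rose and 0 fell, with a median of 3.39, while 0 of 2 *SNORD116* genes of the same domain were called. *SNORD115-9* had 8.48, 8.41 and 8.79 on day 0 and 14.05, 13.69 and 13.93 on day 7, at least 19.2-fold higher. Of 39 *SNORD113* and *SNORD114* genes on chromosome 14, which lie in the imprinted domain of *DLK1*, 26 rose, with a median of 1.67. Copies within an array are similar in sequence and are not independent measurements. Of 10 *POTE* genes, a primate family with ankyrin repeats, 8 rose, *POTEF* from 8.90, 8.60 and 8.82 to 15.02, 15.25 and 15.03, at least 44.4-fold. Members of this family are also similar in sequence.

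Some changes of the first week had turned back by day 21, as the means show, with no test. *BCL11A*, a zinc finger factor of the forebrain, fell from 13.42, 13.12 and 13.15 to 3.77, 3.35 and 3.24, at least 26.1-fold, and had a day 21 mean of 12.85. *LAMB1* and *SNAI2*, which rose, had day 21 means of 4.98 and 4.72, beside day 0 means of 11.59 ± 0.20 and 5.26 ± 0.46 (SD, n = 3).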
